A study of Mus musculus with 14 samples.

Results

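The sine oculis homeobox genes of the mouse encode transcription factors that bind DNA through a homeodomain and a second conserved domain beside it. 5 of them were described here, Six2, Six3, Six4, Six5 and Six6, of 21631 protein-coding genes with a RefSeq position on mouse assembly GRCm38.p6 (mm10). They were chosen by name and not by a measured value, though with earlier results of these data known. For each gene, the length under the peaks of every deposited peak list was taken over the gene and 10 kb to each side of it. Six3 and Six2 lie next to each other on chromosome 17, 36.5 kb apart. Six6 and Six4 lie on chromosome 12, with 154.7 kb between them. Six5 stands alone on chromosome 7, with Dmpk beside it.

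These factors work in a network with Eya, Dach and Pax proteins that sets up sense organs, kidney and muscle. Six3 and Six6 are closely related and act in the eye field and ventral forebrain, where they recruit Groucho-type corepressors (the Tle proteins). Six2 keeps nephron progenitors of the kidney from differentiating. Six4 acts in muscle precursors and sensory placodes, and Six5 lies in the myotonic dystrophy locus. Developmental homeobox genes of this kind are classical targets of Polycomb repression. Polycomb repressive complex 2, of which Suz12 is a core subunit, trimethylates histone H3 at lysine 27 (H3K27me3) through its enzyme Ezh2. Ring1b (Rnf2) is the catalytic subunit of Polycomb repressive complex 1, which compacts such chromatin.

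The study profiled mouse cells labelled as PDGF neural stem cells and described as a model of diffuse intrinsic pontine glioma, a childhood tumour of the brainstem. Cells carried histone H3.3 either in its wild-type form (labelled H3WT) or with lysine 27 replaced by methionine (labelled K27M), a tumour mutation known to impair Polycomb repressive complex 2. They received DMSO, the solvent, or the Ezh2 inhibitor EPZ6438 at 3 µM for 12 days, called EPZ below. Chromatin was crosslinked, sonicated and immunoprecipitated (ChIP-seq). H3K27me3 was profiled in 2 libraries each of H3WT with DMSO, K27M with DMSO, H3WT with EPZ and K27M with EPZ. Suz12 and Ring1b were each profiled in 1 library per genotype, with DMSO only, so their differences between genotypes have no replicate check. The 12 peak lists came from 14 samples, and the 2 IgG samples of H3WT cells with DMSO were not analysed here. The labels do not say how the PDGF signal or the histone was introduced, whether each genotype is 1 clone, or whether libraries of a group came from separate cultures. A p-value below therefore speaks of library-to-library spread alone, and that spread may be technical.

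The start sites of these genes differ in their CpG content, the sequence feature that most marks Polycomb target promoters in mammals. The RefSeq promoter windows, from 250 bases before the start to 50 after it, are shown for the genes whose start sites behaved differently: Six2 and Six6 with peaks under every condition, Six3 with a start that was partly bare under EPZ, and Six5 without any peak. They are written 5′ to 3′ on the strand of the gene, with each CpG in capitals. Six2 lies at chr17:85688205-85688504 on the minus strand, Six3 at chr17:85620584-85620883 on the plus strand, Six6 at chr12:72939632-72939931 on the plus strand and Six5 at chr7:19094294-19094593 on the plus strand, all GRCm38.p6.
Six2: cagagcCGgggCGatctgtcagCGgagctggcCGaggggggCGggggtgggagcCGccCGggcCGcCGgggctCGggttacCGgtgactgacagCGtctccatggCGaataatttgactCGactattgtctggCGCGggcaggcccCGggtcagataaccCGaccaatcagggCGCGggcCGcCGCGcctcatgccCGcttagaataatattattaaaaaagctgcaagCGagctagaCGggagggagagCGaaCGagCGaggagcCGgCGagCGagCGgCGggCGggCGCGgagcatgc
Six3: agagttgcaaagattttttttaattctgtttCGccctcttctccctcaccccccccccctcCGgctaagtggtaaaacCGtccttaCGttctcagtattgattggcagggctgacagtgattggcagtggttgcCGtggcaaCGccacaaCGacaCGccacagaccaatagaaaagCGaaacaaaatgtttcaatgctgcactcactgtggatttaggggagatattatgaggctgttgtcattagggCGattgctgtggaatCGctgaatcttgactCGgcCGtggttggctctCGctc
Six6: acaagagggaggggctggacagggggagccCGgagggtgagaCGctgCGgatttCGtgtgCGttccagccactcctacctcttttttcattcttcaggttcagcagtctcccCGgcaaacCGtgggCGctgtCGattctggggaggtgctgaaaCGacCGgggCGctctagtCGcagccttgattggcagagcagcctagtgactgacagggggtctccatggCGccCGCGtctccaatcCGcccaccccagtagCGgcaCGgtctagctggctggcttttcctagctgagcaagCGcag
Six5: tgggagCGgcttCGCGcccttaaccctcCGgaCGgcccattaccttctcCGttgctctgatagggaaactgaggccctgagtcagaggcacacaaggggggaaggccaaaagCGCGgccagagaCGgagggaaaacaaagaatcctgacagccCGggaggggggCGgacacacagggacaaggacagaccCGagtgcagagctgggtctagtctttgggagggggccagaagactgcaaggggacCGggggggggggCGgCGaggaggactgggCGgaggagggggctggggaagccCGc

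The Six2 window was by far the richest, with 37 CpG and 67.3% G+C, and only 5.58% of the 32851 RefSeq promoter windows held as many. Its ratio of observed to expected CpG was 1.13, against a median of 0.384 over all windows. Six6 held 20 CpG at 62.3% G+C, Six5 held 17 at 66%, and Six4 held 16 at 60% at the first of its 2 listed starts. Six3 held the fewest, 14 CpG at 50% G+C, with a ratio of 0.747. All of these counts lay above the median window, which held 7 CpG at 52.7% G+C, while the G+C content of the Six3 window lay slightly below the median. The CpG count did not order the genes by their peaks: Six5 had more CpG than Six3 and had no peak in any library.

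The letters TCAGGTTTC, known as the MEF3 motif that factors of this family bind in muscle genes, were searched on both strands. They occurred once in these windows, in Six4, on the strand opposite the gene and with the first base 99 bases before the start. The stretch, at chr12:73113326-73113354 on the strand of the gene, is shown because Six4 was the one gene to hold the motif, with the match in capitals as it reads on the opposite strand.
Six4: tggcctggggGAAACCTGAtcggccagat

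A match of these letters occurred in 141 of the 32851 windows (0.429%), and it describes the sequence only.

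The peak lists differed greatly in size, and this bears on every length below. The H3K27me3 lists held 13358 and 59899 peaks in H3WT with DMSO (43.6 and 217 Mb) and 2351 and 17980 in K27M with DMSO (13.5 and 65.5 Mb). Under EPZ they held between 201 and 340 peaks, each covering at most 2.36 Mb. The second DMSO library of each genotype stood apart from the first by its larger list. Ring1b lists held 1754 peaks in H3WT and 1808 in K27M, and Suz12 lists 631 and 1252. No list held read counts, peak heights or a stated depth, no spike-in was named, and no peak was narrower than 1001 bp. A length under peaks shows where a caller passed its threshold, not how much of the mark was there, and how far list size sets the lengths at single genes was not tested.

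In DMSO, H3K27me3 covered 4 of the 5 family genes in both libraries of each genotype, all but Six5. Among all protein-coding genes 21.4% had a peak in both H3WT libraries and 7.06% in both K27M libraries. The median family gene had 82.2% and 96.3% of its window under peaks in H3WT replicates 1 and 2, and 43.3% and 73.1% in those of K27M, while the median protein-coding gene had 0 in each.

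**Figure D1:**
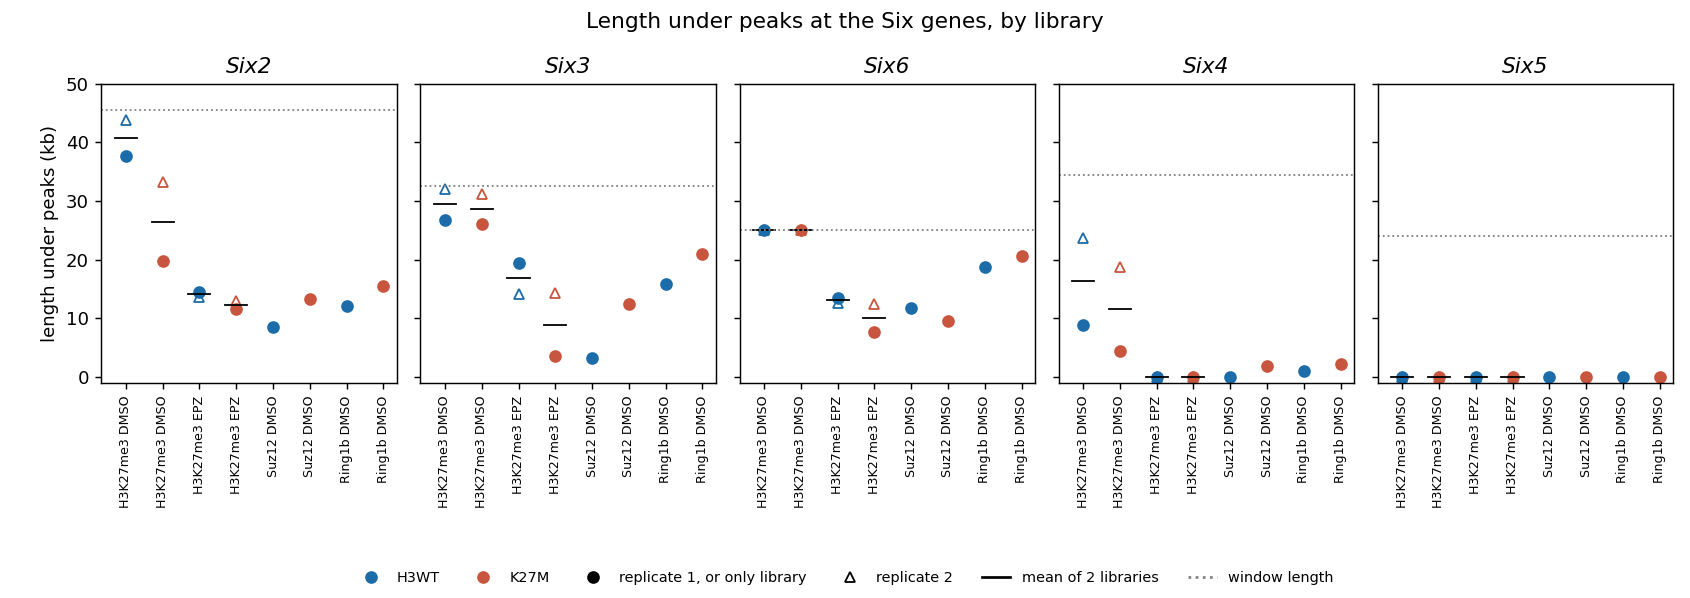
Length under peaks (kb, vertical axis) in each gene and 10 kb to each side, by group, for each of the 12 libraries. Blue marks H3WT and red K27M, filled circles are replicate 1 or the only library, open triangles replicate 2, short lines the group mean, and the dotted line the window length; the 4 DMSO libraries coincide at the window length for Six6, and every Six5 point lies at 0.

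Six6, a regulator of retinal progenitors, was the most widely covered (chr12:72939882-72944899, plus strand). Its whole window of 25.02 kb lay under a single H3K27me3 peak in all 4 DMSO libraries. That peak was 117.5 and 157.5 kb wide in the H3WT libraries and 31.4 and 151.7 kb in the K27M libraries. Most of it lay upstream in the wide cases, where it reached 95.7, 96.2 and 100.4 kb before the Six6 start, and in the narrow K27M library it reached 12.6 kb. In the wide cases the upstream arm ran over 4930447C04Rik, a protein-coding gene. That gene had 57.8 kb under peaks in both H3WT libraries and 55.0 and 57.8 kb in the K27M libraries. In the narrow K27M library the Six6 peak ended short of 4930447C04Rik, so most of the 55.0 kb there lay under other peaks. Six6 stood in a small group at this level: 57 of the 21631 genes had as much of their window covered in the first H3WT library, and 119 in the second.

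Six3, the forebrain and eye field factor, was nearly as covered (chr17:85613608-85626191, plus strand, window 32.6 kb). H3K27me3 peaks covered 26.8 and 32.0 kb in the H3WT libraries and 26.1 and 31.2 kb in the K27M libraries. The values of the genotypes interleaved. In each library the start lay under 1 wide peak, reaching from 19.9 kb before it to 9.56 kb after it in the first H3WT library and from 16.9 kb before to 9.18 kb after in the first K27M library. The annotated start lies 7.23 kb inside the RefSeq extent of Six3, and the upstream side also holds Six3os1, a long noncoding RNA gene that overlaps that extent by 4789 bp. A peak there cannot be told apart between both genes.

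Six2, the nephron progenitor factor, was the one gene whose genotypes did not overlap in DMSO (chr17:85662736-85688254, minus strand, window 45.5 kb). H3K27me3 peaks covered 37.7 and 43.9 kb in the H3WT libraries and 19.7 and 33.3 kb in the K27M libraries. Both K27M libraries lay below both H3WT libraries, an order shown by 24.9% of the 9709 genes with a peak in any DMSO library. Six6, at the window edge in every DMSO library, and Six5, without a peak, could not show it. The peak over the start was 29.6 and 52.2 kb wide in H3WT and 19.7 and 28.6 kb in K27M, and the 19.7 kb peak was the only one in the window of that library. The H3WT mean was 40.8 ± 4.33 kb and the K27M mean 26.5 ± 9.59 kb (SD, n = 2 each), a difference of -14.3 kb with an exact permutation p of 0.333, the smallest that 2 against 2 libraries allow.

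Six4, the muscle and placode factor, was covered around its 5′ end in each library and further along the gene in the second libraries (chr12:73099609-73114031, minus strand, window 34.4 kb). H3K27me3 peaks covered 8.89 and 23.7 kb in the H3WT libraries and 4.42 and 18.7 kb in the K27M libraries. In each genotype the larger value came from the second library, the one with the larger peak list, and the genotypes overlapped. The promoter window of the first start was fully under a peak in both H3WT libraries and the second K27M library, and not under one in the first K27M library, whose single peak ended 0.323 kb before the start. In the second libraries peaks reached 16.5 kb past the start in H3WT and 12.0 kb in K27M. Mnat1, which encodes a subunit of the kinase complex that activates cell cycle kinases, runs the other way from the same place and overlaps Six4 by 1847 bp, so the peaks cannot be told apart between them.

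Six5 had no peak in its window in any of the 12 libraries (chr7:19094544-19098549, plus strand). The nearest H3K27me3 peak in DMSO lay 27.6 and 14.4 kb from the gene in the H3WT libraries and 70.7 and 27.8 kb in the K27M libraries. The surrounding genes were also bare or thinly covered. Dmpk, the myotonic dystrophy protein kinase gene 722 bp away, had no peak within 10 kb in any library. Foxa3, an endoderm factor further along, had 4.38 and 5.53 kb under H3K27me3 peaks in H3WT with DMSO and 1.96 and 5.30 kb in K27M, and none under EPZ. The Six5 promoter held 17 CpG and more G+C than that of Six6, and no library had a peak over it.

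Comparing genotypes in DMSO, 1 of the 5 genes, Six2, had both K27M libraries below both H3WT libraries. Of 9709 genes with a peak in any DMSO library, 24.9% had that order and 0.288% the opposite one, which no family gene showed. The difference was -0.790 kb at Six3 and -4.75 kb at Six4 (exact permutation p = 0.667 for each), and at Six6 it was 0 because every library reached the edge of the window. Benjamini-Hochberg adjusted p-values were 1 for all of these. A count of genes with separated groups rested on few libraries: with the second libraries left out, or the first, 3 family genes were lower in K27M, in 1 library against 1.

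Under EPZ, H3K27me3 peaks stayed at Six2, Six3 and Six6 in all 4 libraries, and none was listed at Six4 or Six5. Peaks in both libraries of a group were rare by then: 0.985% of all protein-coding genes had them in H3WT with EPZ and 0.740% in K27M with EPZ, against 3 of the 5 family genes in each. Of the 1515 genes with a peak in all 4 DMSO libraries, which these 4 genes belong to, 10.0% had one in all 4 EPZ libraries. The remaining peaks were shorter than those at the same genes in DMSO and lay around or upstream of the start sites. All 4 genes marked in DMSO had less length under peaks in every EPZ library than in any DMSO library. That order, seen in 15.3% of the 9749 genes tested, can occur only at genes with a peak in all 4 DMSO libraries, and 98.4% of those 1515 genes showed it, so it was shared by nearly all such genes.

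Six2 kept 14.4 and 13.7 kb under H3K27me3 peaks in H3WT with EPZ and 11.65 and 12.98 kb in K27M with EPZ. The 4 libraries lay close together, apart from all DMSO libraries. In 3 of them a single peak lay over the start, from 5.85, 5.51 and 5.13 kb upstream to 8.57, 8.20 and 7.85 kb downstream. In the first K27M library the same stretch was split in 2 pieces with a gap just upstream of the start, which left 23.7% of the CpG-rich promoter window under a peak. Over both genotypes the mean was 13.2 ± 1.18 kb with EPZ and 33.6 ± 10.3 kb with DMSO (SD, n = 4 each), a difference of -20.4 kb (exact permutation p = 0.0286, two-sided, the smallest that 4 against 4 allow).

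Six6 kept 13.5 and 12.6 kb in H3WT with EPZ and 7.72 and 12.4 kb in K27M with EPZ, in 1 peak per library. The first K27M library was the low one. The peak ran over the start and the gene itself in each library, from 4.79, 4.28, 2.82 and 4.27 kb upstream to 8.67, 8.35, 4.90 and 8.10 kb downstream, and the promoter window was fully covered each time. What was no longer listed lay on both sides of this stretch. Upstream, 4930447C04Rik had no peak within 10 kb in any EPZ library. Downstream, the DMSO peak had reached 21.8 and 61.3 kb past the start in H3WT and 18.7 and 51.3 kb in K27M. The mean in the window was 11.5 ± 2.59 kb with EPZ and 25.02 kb with DMSO, where all libraries reached its edge, a difference of -13.5 kb (exact permutation p = 0.0286). With 20 kb to each side the difference was -31.1 kb, and over the gene alone it was -0.0298 kb, so the Six6 gene itself stayed almost wholly under the peak.

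Six3 kept 19.4 and 14.2 kb in H3WT with EPZ and 3.49 and 14.3 kb in K27M with EPZ. The first K27M library was far below the other 3. The Six3 peaks lay mainly upstream of the start: a single one from 15.03 kb upstream to 4.40 kb downstream in the first H3WT library, and a wide piece from 14.0 to 2.63 kb upstream in the second. In the second K27M library that piece ran from 12.6 to 2.58 kb upstream, and in the first K27M library 2 short pieces were left between 13.3 and 5.42 kb upstream. The start base was under a peak only in the first H3WT library, and the promoter window was 100%, 0, 0 and 47% covered in H3WT replicates 1 and 2 and K27M replicates 1 and 2. The mean was 12.9 ± 6.70 kb with EPZ and 29.0 ± 3.03 kb with DMSO, a difference of -16.2 kb (exact permutation p = 0.0286), which was -5.14 kb over the gene alone.

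Six4 had no H3K27me3 peak in its window in any of the 4 EPZ libraries, against a mean of 13.9 ± 8.83 kb with DMSO (SD, n = 4), a difference of -13.9 kb (exact permutation p = 0.0286). Leaving out the second replicates, the difference at Six4 was -6.66 kb, and leaving out the first it was -21.2 kb. Mnat1, which shares the start region, also had no peak under EPZ. After Benjamini-Hochberg adjustment over all 9749 genes the p of Six2, Six3, Six4 and Six6 was 0.187 each, and no gene passed 0.05 in this exact permutation test, while 1491 genes had an unadjusted p of 0.0286. That test exchanged treatment labels across genotypes. Exchanged within each genotype, the exact permutation p was 0.0556 for each of the 4 genes, the smallest possible there and above 0.05.

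Between genotypes under EPZ, both K27M libraries lay below both H3WT libraries at Six2 and Six6, an order that 38.3% of the 347 genes with a peak in any EPZ library showed, and 1.44% showed the opposite one. The differences were -1.75 kb at Six2 and -3.00 kb at Six6 (exact permutation p = 0.333 each, the smallest possible, adjusted p = 0.838). At Six3 the groups overlapped, with a difference of -7.92 kb (exact permutation p = 0.667, adjusted p = 1) that rested on the low first K27M library: without the first replicates it was 0.101 kb. Over both treatments together, with genotype labels exchanged within each treatment, Six2 was lower in K27M by -8.03 kb (exact permutation p = 0.0556, the smallest possible, adjusted p = 1).

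The difference between EPZ and DMSO was itself compared between genotypes. It was -26.7 kb for H3WT and -14.2 kb for K27M at Six2, -12.6 and -19.7 kb at Six3, -16.3 and -11.5 kb at Six4, and -11.97 and -14.97 kb at Six6. The exact permutation p was 0.333, 0.611, 0.667 and 0.333 (adjusted p = 1 each). The smallest p this design allows is 0.0556, and Six6 reached the edge of its window in all DMSO libraries, so a difference between genotypes could not have passed 0.05 here. At Six2 the DMSO lengths were larger in H3WT than in K27M, while the EPZ values of both genotypes lay close together. For each replicate number the H3WT DMSO list was also larger than the K27M one, and the part of list size was not tested.

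Ring1b and Suz12, measured in DMSO only, lay at the genes that kept H3K27me3 peaks under EPZ. Ring1b had a peak at 4 of the 5 genes in each genotype, all but Six5, against 6.99% of all protein-coding genes in H3WT and 8.02% in K27M. Suz12 had a peak at Six2, Six3 and Six6 in H3WT, where 2.30% of genes had one, and at these and Six4 in K27M, where 4.04% did. The Suz12 list of K27M was also the longer of both.

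At Six6, Suz12 peaks covered 11.8 kb in the H3WT and 9.51 kb in the K27M library, and Ring1b peaks covered 18.7 and 20.7 kb. A single Suz12 peak lay from 4.21 kb before to 7.56 kb after the Six6 start in H3WT and from 4.27 kb before to 5.24 kb after it in K27M. This is nearly the stretch that stayed under H3K27me3 with EPZ. Of the length under EPZ peaks at Six6, Ring1b peaks of the same genotype covered 99.9% and 100% in the H3WT libraries and 100% in both K27M libraries, and Suz12 peaks covered 87.4% and 93.2%, then 100% and 76.9%.

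At Six2, Suz12 peaks covered 8.47 kb in H3WT, in 3 pieces, and 13.3 kb in K27M, in 1 peak, while Ring1b peaks covered 12.0 and 15.5 kb. All of the Suz12 length lay within Ring1b peaks in both genotypes. Ring1b peaks covered 82.1% and 83.9% of the EPZ length at Six2 in the H3WT libraries and all of it in the K27M libraries. For Suz12 these shares were 58.7% and 61.8% in H3WT, and 100% and 95.6% in K27M. Over the whole genome Ring1b peaks covered 79.6% and 82.1% of the EPZ length in H3WT and 94.2% and 85.4% in K27M, so the shares at Six2 in H3WT were near those of EPZ peaks in general.

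At Six3, Suz12 peaks covered 3.18 kb in the H3WT and 12.5 kb in the K27M library, and Ring1b peaks 15.9 and 20.9 kb. In H3WT the 2 Suz12 peaks lay between 8.14 and 4.93 kb upstream and the start was bare, and none of their length lay within a Ring1b peak. In K27M a Suz12 peak ran over the start, from 2.31 kb before to 5.79 kb after it, and all of the Suz12 length lay within Ring1b peaks. Ring1b peaks covered the Six3 promoter window fully in both genotypes. Of the Six3 EPZ length they covered 74.9% and 69.7% in H3WT and 72.6% and 93.3% in K27M. The whole-genome Ring1b shares were 79.6% and 82.1%, then 94.2% and 85.4%. Suz12 covered a small part of the Six3 EPZ length in 3 libraries, 16.4% and 22.4% in H3WT and 16.4% in the first K27M library, and 60.2% in the second. Over the whole genome these Suz12 shares were 60.4% and 66.6%, then 72.9% and 60.9%.

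**Figure D2:**
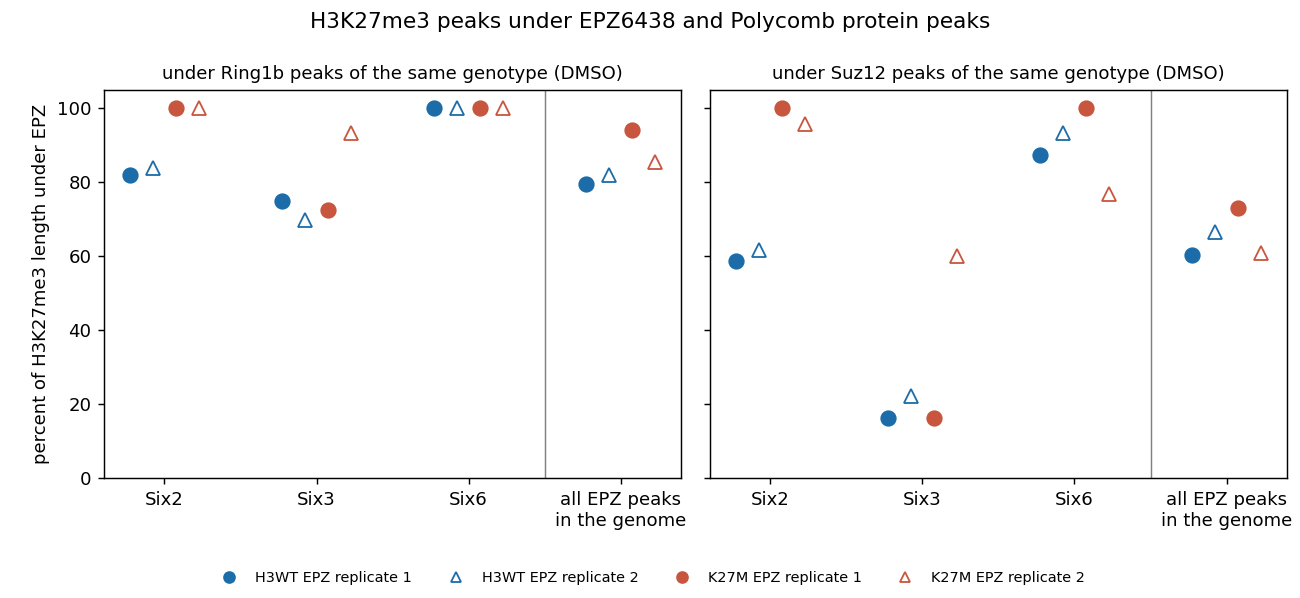
Share (%) of the length under H3K27me3 peaks with EPZ that lay within Ring1b or Suz12 peaks of the same genotype with DMSO, for Six2, Six3 and Six6 and over the whole genome, 1 point per EPZ library. At Six6 the Ring1b shares were 99.9% or more, and the lowest Suz12 shares, 16.4%, were at Six3.

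At Six4, Ring1b peaks were short and lay over the start, 1.02 kb in H3WT and 2.22 kb in K27M. A Suz12 peak of 1.93 kb was listed in K27M only, ending 0.215 kb before the first start, and 33.7% of it lay within the Ring1b peak. Six4 had the smallest Ring1b length of the 4 marked genes in each genotype and was also the one with no peak under EPZ. At Six5 the nearest Ring1b peak was 135.9 kb from the gene in H3WT and 135.6 kb in K27M.

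**Figure D3:**
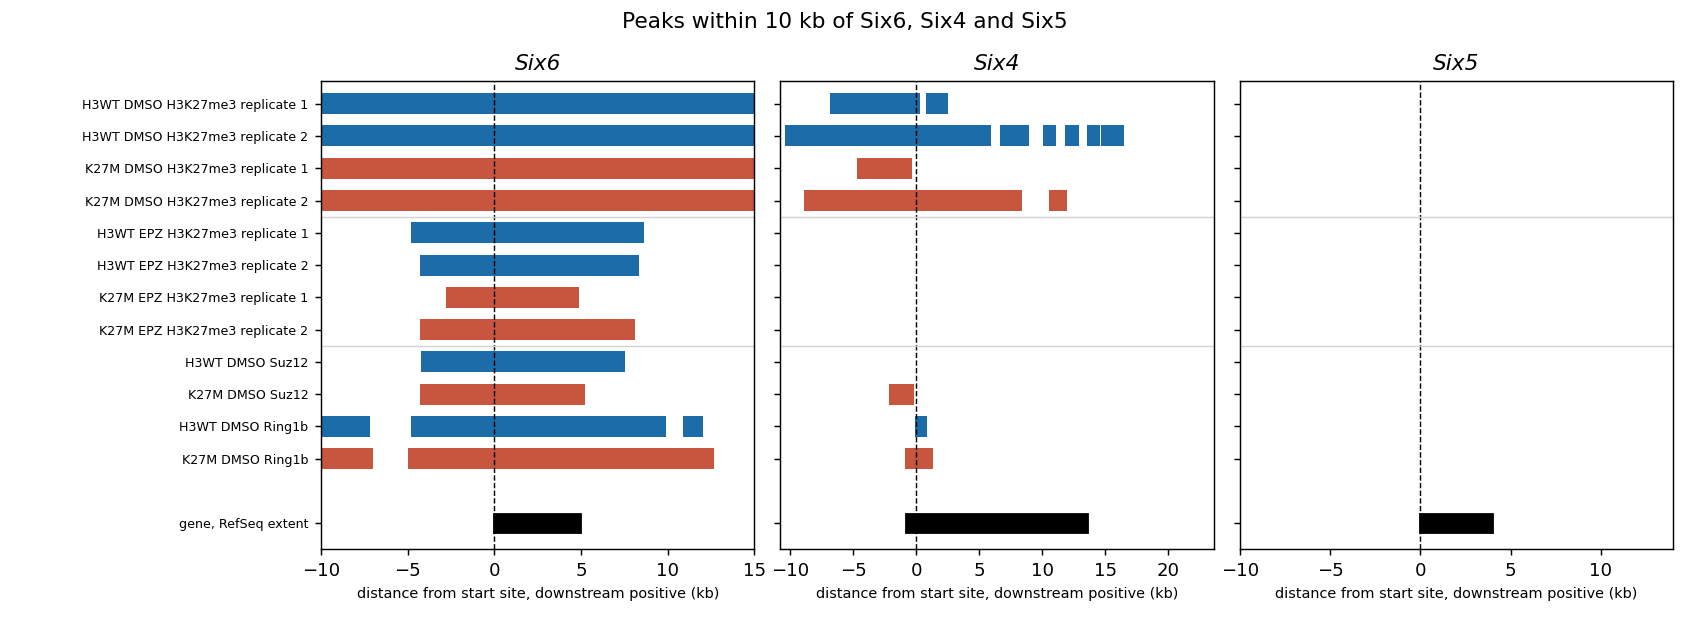
Peaks of each library around the starts of Six6, Six4 and Six5, as bars along the distance from the start in kb, positive downstream on the strand of each gene; blue rows are H3WT, red rows K27M, the black bar is the gene, the dashed line its start, and peaks are cut at the edges of the window. Six6 kept 1 peak over the start in every EPZ library, Six4 had none under EPZ, and Six5 had none within 10 kb in any library.

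Genes whose products work with these factors were marked in part. Of 13 listed cofactor genes, 4 had H3K27me3 peaks in both H3WT DMSO libraries (Dach1, Dach2, Tle1 and Tle3), where 21.4% of all genes did, 3 in K27M with DMSO, where 7.06% did, and none in either EPZ group. The median cofactor gene had 2.72% of its window covered in H3WT with DMSO and 0.620% in K27M, against 0 for all genes. Dach1, which encodes a corepressor that works with Eya proteins, had 23.3 and 117 kb under peaks in H3WT and 17.4 and 36.5 kb in K27M. Eya1 to Eya4 encode the phosphatase coactivators, and none had peaks in both libraries of a group. Eya4 had 14.6 kb in the second H3WT and 3.32 kb in the second K27M library with DMSO, and 3.13 kb under a Ring1b peak in H3WT, and Eya2 had 2.67 kb in the second H3WT library. Ring1b had peaks at 6 of the 13 in H3WT, Eya4 among them, and 4 in K27M, against 6.99% and 8.02% of all genes. Suz12 had peaks at 1 and 4, against 2.30% and 4.04%. Among these 4, Tle2 and Tle5 had equal lengths in every library, 2.15 kb for Suz12 in K27M. The same peak may therefore count at both genes.

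Among 12 other factors of the eye and forebrain field, 6 were marked in both H3WT DMSO libraries, Pax2, Rax, Lhx2 and Otx2 among them, and 7 in both K27M DMSO libraries, against 21.4% and 7.06% of all genes. Pax2, needed for optic stalk and kidney, was the only one to keep peaks in every EPZ library, with 21.3 and 18.6 kb in H3WT and 7.99 and 13.2 kb in K27M, from 83.3 and 106 kb and 36.7 and 63.8 kb in DMSO. Otx2, a forebrain and midbrain factor, kept 9.14 and 12.7 kb in K27M with EPZ, and 2.59 and 0 kb in H3WT. Its Suz12 length was 0 in H3WT and 18.8 kb in K27M, and its Ring1b length was 13.3 and 27.3 kb. Other genes of this list did not share that order. Pax2 had 16.2 kb of Suz12 in H3WT and 17.3 kb in K27M, with less length under EPZ peaks in K27M. Rax, Lhx2 and Vsx1 also had Suz12 peaks in K27M only. Of these, only Rax had an EPZ peak, in the second K27M library. The difference at Otx2 had 1 Suz12 library per genotype and was not tested.

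Of 12 genes that act downstream of or beside these factors, 8 were marked in both libraries of H3WT with DMSO and 8 in K27M with DMSO, beside the same 21.4% and 7.06% of all genes. With EPZ, Wnt1 and Osr1 were marked in H3WT and Wnt1 alone in K27M, beside 0.985% and 0.740%. Osr1, a kidney progenitor factor, had 18.2 and 22.0 kb in H3WT with DMSO and 13.5 and 15.6 kb in K27M, then 11.6 and 8.14 kb in H3WT with EPZ and 0 in both K27M libraries with EPZ. Wnt1, a midbrain ligand whose gene Six3 is known to repress, kept 3.43 and 2.03 kb in H3WT and 2.12 and 1.48 kb in K27M. None of 7 neural stem and glial progenitor marker genes, Sox2, Nes and Olig2 among them, had H3K27me3 peaks in both libraries of any group. The shares of all genes were 21.4% in H3WT and 7.06% in K27M with DMSO, and 0.985% and 0.740% with EPZ. Of 12 marker genes of microglia, endothelium, fibroblasts and neurons, 3 had them in H3WT with DMSO (Col1a1, Rbfox3 and Tubb3), a share near the 21.4% of all genes. In K27M with DMSO 1 of the 12 did, Rbfox3, a share near the 7.06% of all genes. Expression was not measured, so the labelled cell type could not be checked against its markers.

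The genes whose cover was most like each family gene were found by the mean absolute difference in percent of the window covered over the 12 libraries. For Six6 they were Foxa1 (5.02 percentage points), Pou4f1 (5.66) and Foxd3 (6.06). For Six2 they were Nkx1-1 (5.25), Gata4 (5.36) and Zdbf2 (6.77). For Six3 they included Fezf1 (7.76) and Pdx1 (8.48). Most of these are transcription factor genes of development, whereas those most like the less covered Six4 included Rtn4rl2 (2.67) and Krtap5-4 (2.83), and 11140 genes shared the value of 0 with Six5 in every library. Within the family, Six3 and Six6, which lie on different chromosomes, were the most alike at 13.7 percentage points. Six4 and Six5, the least covered genes, came next at 14.7, and the neighbours Six2 and Six3 differed by 17.0. These likenesses are over libraries that differ in list size and carry no test.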

How the data were processed

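H3K27me3, Suz12 and Ring1b were profiled by ChIP-seq in 12 libraries with 1 peak list each. Reads were aligned with Bowtie 1.1.2 to mm10, according to the submitters' processing notes. How peaks were called, with which threshold and control, and the read depth are not given in the sources used here. The deposited lists give start and end positions, and a score that the authors left at 0 on every line, so precision rests on the number of libraries alone.

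Overlapping peaks of a list were merged and their length was summed over each of the 21631 RefSeq protein-coding genes and 10 kb to each side. Lengths are capped by the window, and no pseudocount was used except 1 kb in a log2 alternative. Groups were compared with two-sided exact permutation tests of mean length over all genes with a peak, with Benjamini-Hochberg adjustment and a threshold of 0.05 (Python 3.11.15, numpy 2.4.6, scipy 1.17.1), and the code was tested on simulated data. An overlap of 1 bp counted as a peak at a gene. Genes were marked where both libraries of a group had a peak. Promoter sequences came from RefSeq GRCm38.p6, and all 5 members matched by symbol. No genome or protein sequence was used here, so the planned protein identities were not computed.

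The genes and lists were chosen with earlier results of these data known. Named genes were the 5 members, protein-coding neighbours within 100 kb, genes of the lists, marker genes, and for each member the 3 genes most alike outside its linked group and over 1 Mb away. Some genes named by it are not reported. Alternatives were gene bodies alone, 20 kb to each side, only peaks of at least 3 kb, an overlap of 1 kb, log2 lengths, relabelling within each genotype, a replicate block, and leaving out each replicate number.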

Additional observations from a re-analysis of the deposited data

How the results depend on the processing

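Of 212 values under alternatives, 208 neither reversed nor crossed the threshold of adjusted p, with counts held to within 1.5 times. No gene passed that threshold in the main setting, and no genotype comparison allowed a p under 0.05, so crossing was largely barred beforehand. Size was not judged: over gene bodies the EPZ difference at Six3 went from -16.2 to -5.14 kb and still counted as unchanged. With only peaks of at least 3 kb, the family genes with a peak went from 3 to 2 for H3K27me3 in K27M with EPZ and for Suz12 in H3WT, from 4 to 3 for Suz12 in K27M and Ring1b in both genotypes, and from 2 to 3 for those lower in K27M under EPZ. Over gene bodies the genes lower with EPZ went from 4 to 3, with Six6 at -0.0298 kb, and the genotype difference at Six3 in DMSO from -0.790 kb to 0. The difference between EPZ and DMSO was negative in 32 of 32 alternatives at single genes, and that between genotypes in 72 of 80, with 7 at 0 and 1 above it. These alternatives reuse the same libraries, and replicate blocks and relabelling within genotypes keep the main difference exactly, so they are not separate checks. The count of family genes with both K27M libraries lower in DMSO was 1, and 3 without replicate 1 and 3 without replicate 2. Under EPZ that count was 2, and 1 over gene bodies alone. At Six3 the genotype difference under EPZ was -7.92 kb, 0.101 kb without replicate 1 and -15.9 kb without replicate 2. No gene passed an adjusted p of 0.05 in any comparison or alternative.

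Replicate numbers had no stated meaning. Deviations of same-numbered libraries correlated at 0.829 between the DMSO groups, -0.400 between the EPZ groups and between -0.0201 and 0.0252 otherwise, over 9749 genes. With a replicate block the EPZ difference at Six2 was again -20.4 kb, with an exact permutation p of 0.125, the smallest such a block allows, and 4 family genes were lower. Pairing the EPZ libraries across numbers for the genotype comparison, chosen after seeing the data, gave 0 genes past the threshold. No other outcome was possible, since the smallest exact permutation p of that pairing is 0.5. The unknown depth and calling threshold limit what a length under peaks shows.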
